A study of Mus musculus with 4 samples.

Results

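Wide regions of open chromatin, each with several separate summits in every library, were described in the dentate gyrus of mice. Summits of 4 FAIRE-seq libraries that lay within 1000 bp of the next were joined, and a joined region was kept when each library had at least 2 summits in it. Of 77797 joined regions, 745 met that condition, 689 of them on autosomes 1 to 19. Of those 689, 135 were dropped because they touched a window of 50 kb with 5 or more regions shared by all 4 libraries at a joining distance of 250 bp. The remaining 554 wide regions were 2.22% of the 24923 regions called in all 4 libraries on autosomes outside such windows. The members were thus chosen by the measured summit positions of all 4 libraries. Their summit number, their presence in every library and their close spacing are therefore given as a description. Exact permutation tests between groups of libraries are printed below for summit numbers and spacing. The rule limits these quantities, so nothing is read from those tests.

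All mice were C57BL6 and around 9 weeks old, and 2 libraries were titled WT and 2 Mbd1 KO. The Mbd1 protein attaches to DNA at methylated CpG dinucleotides and recruits factors that repress genes, and the study asked which active regulatory elements differ without it. In the genotype field WT 1 is listed as Mbd1 KO and Mbd1 KO 2 as WT, against their titles, so both groupings are given and libraries are named by title. How the deletion was made, the sex of the mice and whether animals were pooled are not stated in the labels, and spread between libraries of a group may be technical.

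FAIRE-seq recovers DNA that carries few nucleosomes after fixation, sonication and phenol extraction. Such DNA is typical of active promoters and enhancers, where regulatory proteins displace nucleosomes and where accessible sites often lie side by side with nucleosomes between them. A peak caller marks the highest point of each peak as its summit, so neighbouring accessible sites can appear as several summits. Of the 190846 deposited summits, 0 carried the lettered name that MACS2 gives to several summits of 1 peak, so each summit in a wide region belonged to a peak of its own. The files use mouse build mm9, and no mm9 sequence or annotation was used, so wide regions are named by position, no gene is assigned to them and no sequence is shown. The tissue was not checked against marker genes for the same reason.

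The lists held between 38142 and 56382 summits, and read depth is not known from them. Between 1142 and 1162 summits of each library lay in wide regions. WT 1 had 1142 of them (2.99% of its list), WT 2 1162 (2.49%), Mbd1 KO 1 1151 (2.04%) and Mbd1 KO 2 1156 (2.33%). The numbers were nearly equal, while the share of the list fell as the list grew longer. By title the mean was 1154 ± 3.54 for Mbd1 KO and 1152 ± 14.1 for WT (SD, n = 2 each). Their ratio was 1.00, with a two-sided p of 1 by exact permutation, where 2 libraries against 2 cannot go below 0.33. By the genotype field the means were 1147 ± 6.36 for Mbd1 KO and 1159 ± 4.24 for WT (exact permutation p = 0.33, two-sided). The rule sets a floor of 2 summits per region and library, which leaves these totals little room to differ. Nothing is therefore read from the ratio or from either p value.

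Most wide regions were pairs of summits. Exactly 2 summits in each of the 4 libraries were found in 477 of the 554 (86.1%), and 10 held 3 or more in each. A library had 3 or more summits in 32 wide regions (WT 1), 48 (WT 2), 37 (Mbd1 KO 1) and 44 (Mbd1 KO 2). Their mean number by title was 40.5 ± 4.95 in Mbd1 KO and 40 ± 11.3 in WT (n = 2 each, SD). The two-sided p was 1 by exact permutation. By the genotype field the counts were 32 and 37 for Mbd1 KO and 48 and 44 for WT. The two-sided exact permutation p was 0.33, the smallest that 2 libraries against 2 allow, so nothing is read from this order. From first to last summit the wide regions measured a median of 756 bp (quartiles 545 and 956 bp), from 347 to 3033 bp, and 114 of them were over 1000 bp.

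Inside wide regions, summits of the 4 libraries mostly lay near one another. Inside a wide region, neighbouring summits up to 250 bp apart were counted as 1 place, whichever library they came from. The 554 wide regions held 1209 places, and 1091 of these (90.2%) had a summit of every library. Another 42 lacked 1 library, 35 had 2 and 41 had a single one. At least 2 places were shared by all 4 libraries in 531 wide regions (95.8%). The rule asks for at least 2 summits of every library in each region, which favours shared places. These shares are therefore a description. The simplest layout, with 2 places that each held 1 summit of every library, was found in 468 (84.5%), and these are called 2-place regions below. In 5 wide regions a place held 2 summits of the same library, so that close neighbours were counted as 1 place there.

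Within the 2-place regions, the libraries gave similar distances between the places. These regions were kept because the summits of all 4 libraries fell into the same 2 places, which by itself limits how far positions and spacings can differ. The 4 summits of a place spanned a median of 38 bp (quartiles 25 and 56 bp), close to the 40 bp (quartiles 27 and 59 bp) of the 22468 regions with exactly 1 summit in each library. The place with the higher mean score spanned a median of 35 bp and the other 41 bp. Mean spacing between the places ran from 310 to 1190 bp with a median of 636 bp, and in a given region the 4 libraries' spacings differed by a median of 56 bp (quartiles 35 and 81 bp). Across the 468 regions, spacing in a library correlated with spacing in another at Spearman's rho from 0.969 to 0.975 over the 6 pairs of libraries. That is a description across regions, which are not replicates. In 69 regions (14.7%) the spacings differed by over 100 bp.

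Spacings had no single preferred length between the shortest distance the lists hold and the joining limit. Inside wide regions the median distance between neighbouring summits of a library was 651 bp in WT 1, 648 bp in WT 2, 658 bp in Mbd1 KO 1 and 644 bp in Mbd1 KO 2. By title these medians averaged 651 ± 9.90 bp in Mbd1 KO and 650 ± 2.12 bp in WT (SD, n = 2 each), a difference of 1.5 bp (exact permutation p = 1, two-sided). By the genotype field the difference was 8.5 bp, with 655 ± 4.95 bp in Mbd1 KO and 646 ± 2.83 bp in WT (exact permutation p = 0.33, two-sided). Joining at 1000 bp limits these distances by the rule, so nothing is read from either p value. The closest neighbours lay 264, 277, 238 and 280 bp apart in WT 1, WT 2, Mbd1 KO 1 and Mbd1 KO 2. Of the 2-place regions, 66 had a mean spacing up to 400 bp, 77 of 401 to 500 bp, 67 of 501 to 600 bp, 59 of 601 to 700 bp, 73 of 701 to 800 bp, 58 of 801 to 900 bp, 42 of 901 to 1000 bp and 26 above that.

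Close neighbours were frequent in all 4 lists, also outside wide regions. On autosomes outside the dense windows, WT 1 had 243 pairs of neighbouring summits 301 to 400 bp apart, against a mean of 66.4 per 100 bp between 2001 and 3000 bp. WT 2 had 328 against 95.6, Mbd1 KO 1 300 against 126.1, and Mbd1 KO 2 330 against 112.6. Every library had 0 pairs within 200 bp, and between 21 and 46 pairs of 201 to 300 bp. Pairs of 301 to 400 bp that lay in wide regions numbered 83 in WT 1, 89 in WT 2, 75 in Mbd1 KO 1 and 80 in Mbd1 KO 2, so most pairs this close lay outside the wide regions.

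**Figure D1:**
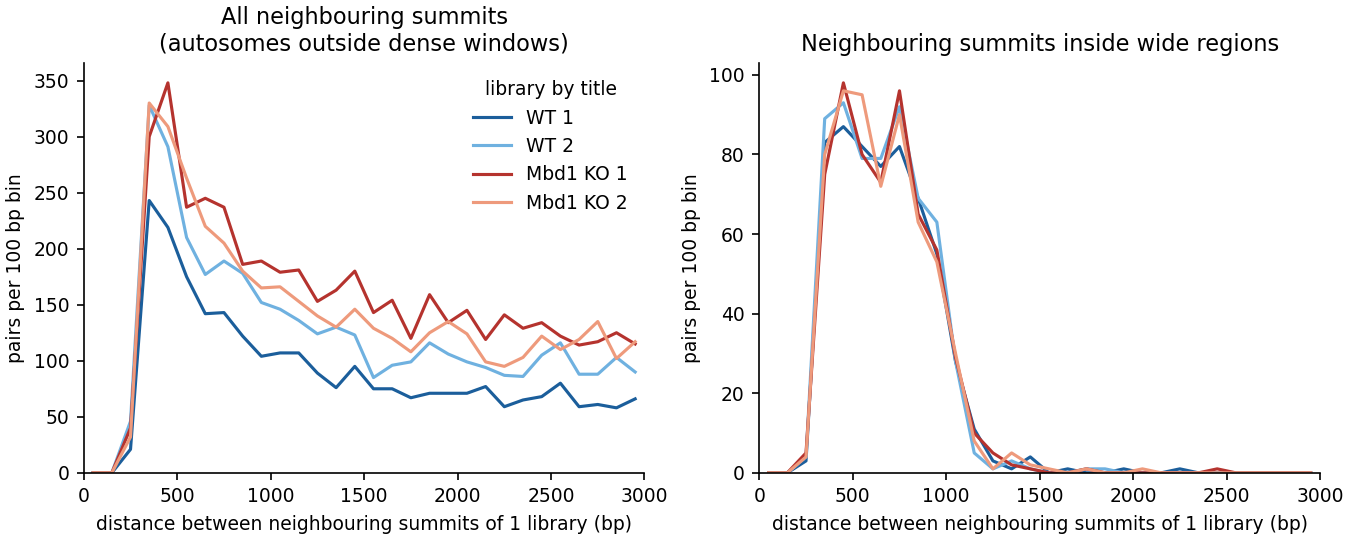
Number of pairs of neighbouring summits of 1 library per 100 bp bin of the distance between them, for all summits on autosomes outside dense windows (left) and inside the 554 wide regions (right), 1 line per library. All 4 lines on the left rise above 200 per bin between 300 and 500 bp and fall to between 66.4 and 126.1 at 2001 to 3000 bp, while on the right few pairs lie beyond the joining distance of 1000 bp, between 40 and 50 in each library.

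The shortest and longest 2-place regions show the range. The region with the shortest mean spacing lay on chromosome 11 (87860778 to 87861124), with places 310 bp apart. Its leading scores, the highest of each library in the region, were 21.5 in WT 1, 15.2 in WT 2, 20.7 in Mbd1 KO 1 and 33.4 in Mbd1 KO 2. WT 1 had its higher summit at 87860810, and the other 3 libraries at 87861111 to 87861124. Next were regions on chromosome 10 (80065575 to 80065944), with 325 bp, and on chromosome 13 (24914695 to 24915066), with 330 bp.

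Among the 3 regions with the longest spacing, 2 had loose positions. A region on chromosome 16 (5225643 to 5226995) had a mean spacing of 1190 bp, and the spacings of the libraries differed by 354 bp. In the one on chromosome 11 (61221432 to 61222814) the mean was 1176 bp and the difference 396 bp, with the weaker summit at 61222814 in WT 1, 61222766 in WT 2, 61222534 in Mbd1 KO 1 and 61222470 in Mbd1 KO 2. On chromosome 3 (130276589 to 130277781) the places had a mean spacing of 1113 bp with a difference of 106 bp. All 3 were led from the same place in every library.

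Strength was described by the score within each list. The score is the −log10 p or q value of the peak caller, as deposited by the authors, and its percentile is its standing in the library's own list. Leading summits of wide regions had a median percentile of 82.9 in WT 1, 83.3 in WT 2, 87.0 in Mbd1 KO 1 and 84.9 in Mbd1 KO 2. Second summits had medians of 53.4, 58.8, 67.2 and 60.0 in the same order. In each library the single summit of a region with 1 summit per library lay between these, with medians of 63.9, 71.1, 75.6 and 72.7. The leading summit is the higher of at least 2, so it stands higher by construction.

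In raw scores, the leading summits had medians of 26.8 in WT 1, 23.1 in WT 2, 27.5 in Mbd1 KO 1 and 28.1 in Mbd1 KO 2, and the second summits 12.3, 11.7, 13.2 and 13.4. The highest 10% of a list held the leading summit of 176 wide regions in WT 1, 181 in WT 2, 229 in Mbd1 KO 1 and 196 in Mbd1 KO 2, but the second summit of 22, 25, 41 and 32. Those leading summits were 31.8%, 32.7%, 41.3% and 35.4% of the 554, in the same order. Of the regions with 1 summit per library, 14.0%, 17.3%, 21.0% and 18.4% had their summit there. A leading summit is the higher of at least 2, which raises its share by construction. Among the 1000 strongest summits of each list, between 41 and 47 lay in wide regions, while summits of wide regions made up 2.04% to 2.99% of the whole lists. Scores depend on the depth of a library, which is unknown, so levels were not compared between libraries.

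**Figure D2:**
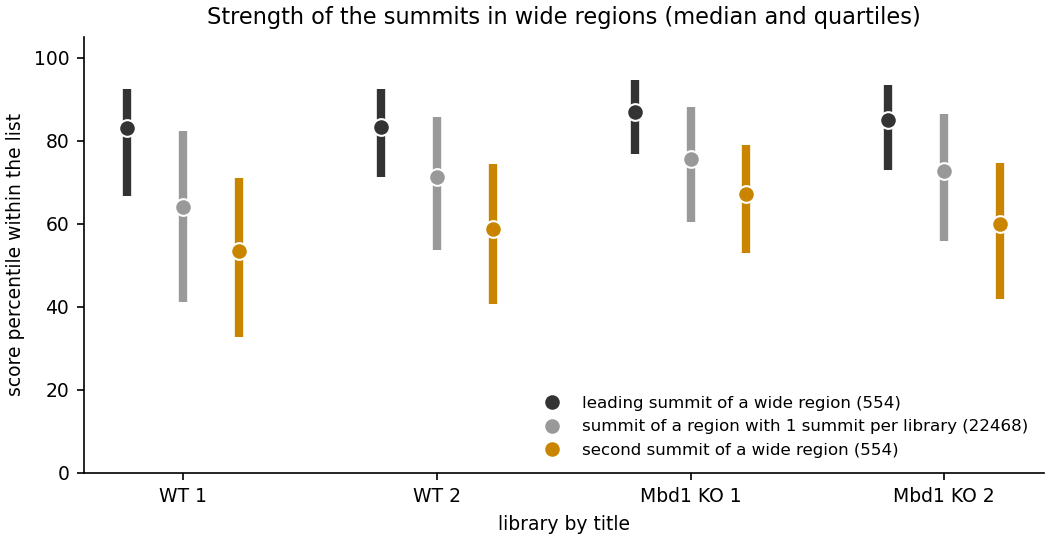
Score percentile within the library's own list (vertical axis) for leading summits of the 554 wide regions, single summits of 22468 regions with 1 summit per library, and second summits of wide regions, by library; dots are medians and bars span the quartiles. In all 4 libraries the leading summits stand highest and the second summits lowest, with the single summits between.

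Stronger shared regions were more often wide. The 24923 regions of all 4 libraries were divided into 10 classes of nearly equal size by the lowest of the 4 percentiles of their leading summits. In the weakest class 9 of 2493 (0.361%) were wide, in the fifth 39 (1.56%), and in the strongest 118 of 2493 (4.73%). The share rose from each class to the next. The leading summit of a wide region is the higher of at least 2 in every library, which raises its class by construction. Both measures come from the same summit lists, so this is a description without a test.

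The strongest leading summit in a wide region was on chromosome 7 (26052544 to 26053191). It scored 128 in WT 1, 104 in WT 2, 158 in Mbd1 KO 1 and 142 in Mbd1 KO 2, while the second summit, about 592 bp away, scored 55.8, 26.6, 52.1 and 38.4. The region on chromosome 15 (102348502 to 102349195) was more unequal, with leading scores of 119, 92.9, 133 and 109 and second scores of 9.50, 10.2, 17.2 and 14.3 in WT 1, WT 2, Mbd1 KO 1 and Mbd1 KO 2. Every library had its leading summit on the same side of these regions. Next in order were regions on chromosome 10 (79861658 to 79862449) and chromosome 11 (75274111 to 75274998 and 97563825 to 97564613), with leading scores from 82.8 to 153. All 5 kept their lead in 4 of 4 libraries.

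Of the 5 wide regions with the strongest second summit, 3 were led from different places in different libraries and 2 from the same place in all 4. On chromosome 7 (19813499 to 19814140) the leading and second scores were 92.2 and 78.3 in WT 1, 63.6 and 60.3 in WT 2, 107.5 and 77.7 in Mbd1 KO 1, and 86.5 and 70.2 in Mbd1 KO 2. The place at 19813517 to 19813530 led in WT 1 and Mbd1 KO 1, and the place at 19814121 to 19814140 in WT 2 and Mbd1 KO 2. A second region on chromosome 7 (148513619 to 148514035) was led from the higher coordinate in WT 1 (82.1 against 75.4) and WT 2 (62.8 against 60.7) and from the lower one in Mbd1 KO 1 (76.2 against 75.2) and Mbd1 KO 2 (80.6 against 56.6). The smallest of these score differences was 0.920, in Mbd1 KO 1.

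The other 3 regions of this group included regions with and without a change of lead between libraries. On chromosome 11 (77795308 to 77796070) all 4 libraries led from 77796064 to 77796070, by 23.0 in WT 1 but only 0.282 in Mbd1 KO 2. Another on chromosome 10 (79229775 to 79230361) was led from the lower coordinate in WT 1 and Mbd1 KO 1 and from the higher one in WT 2 and Mbd1 KO 2. One on chromosome 3 (95428803 to 95429282) was led from the lower coordinate in all 4, by between 38.0 and 44.3, and its 4 spacings differed by only 9 bp.

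Each of the 5 wide regions with the most summits was led from the same place in all 4 libraries, while in 2 of them some weaker places were called in only part of the libraries. The widest, on chromosome 7 (6680224 to 6683256, 3033 bp), had 4 summits in each library at 5 places. The place at 6681493 to 6681548 led in all 4, with scores of 27.5 in WT 1, 21.6 in WT 2, 24.9 in Mbd1 KO 1 and 27.3 in Mbd1 KO 2. The next place was found at 6682293, 6682295, 6682295 and 6682292 in the same order, so the libraries placed it within a few bases. At the lower end, WT 1, Mbd1 KO 1 and Mbd1 KO 2 had a summit at 6680224 to 6680244 and WT 2 had its own at 6680630.

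A region on chromosome 18 (4195449 to 4198228, 2780 bp) had 5 summits in Mbd1 KO 1 and 4 in each other library. The place at 4198157 to 4198228 led in all 4, with 21.1 in WT 1, 20.03 in WT 2, 11.5 in Mbd1 KO 1 and 20.6 in Mbd1 KO 2. Its 3 places at either end and at 4197421 to 4197472 were called in every library. Of the 2 places between them, the one at 4196448 to 4196556 was not called in Mbd1 KO 2 and the one at 4196891 to 4196902 only in the Mbd1 KO libraries.

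On chromosome 4 (135840485 to 135841931) 3 places were each called once in every library, and the one at 135841908 to 135841931 led with 64.8, 65.0, 64.2 and 54.1 in WT 1, WT 2, Mbd1 KO 1 and Mbd1 KO 2. The middle place scored 19.5, 15.8, 28.1 and 26.0 and the place at the lower coordinate 19.7, 28.8, 25.8 and 26.3. Their order was lower before middle in WT 1, WT 2 and Mbd1 KO 2 and the reverse in Mbd1 KO 1. A region on chromosome 14 (51708297 to 51710366) was led from the middle of 3 places in all 4 libraries, with scores from 31.1 to 39.6, and one on chromosome 18 (35019581 to 35020812) from its lower end, with scores from 41.6 to 45.0.

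The remaining widest regions were weak or uneven. On chromosome 8 (73710337 to 73712792) leading scores were 3.83, 4.40, 8.11 and 11.5 in WT 1, WT 2, Mbd1 KO 1 and Mbd1 KO 2, and 3 different places led. One on chromosome 4 (145858236 to 145860533) was led from 2 places with scores from 10.5 to 15.2. One on chromosome 13 (120281316 to 120283518) had 2, 5, 3 and 4 summits in the same order of libraries, and all 4 led from 120283496 to 120283518 with 17.3, 21.2, 21.97 and 19.8.

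**Figure D3:**
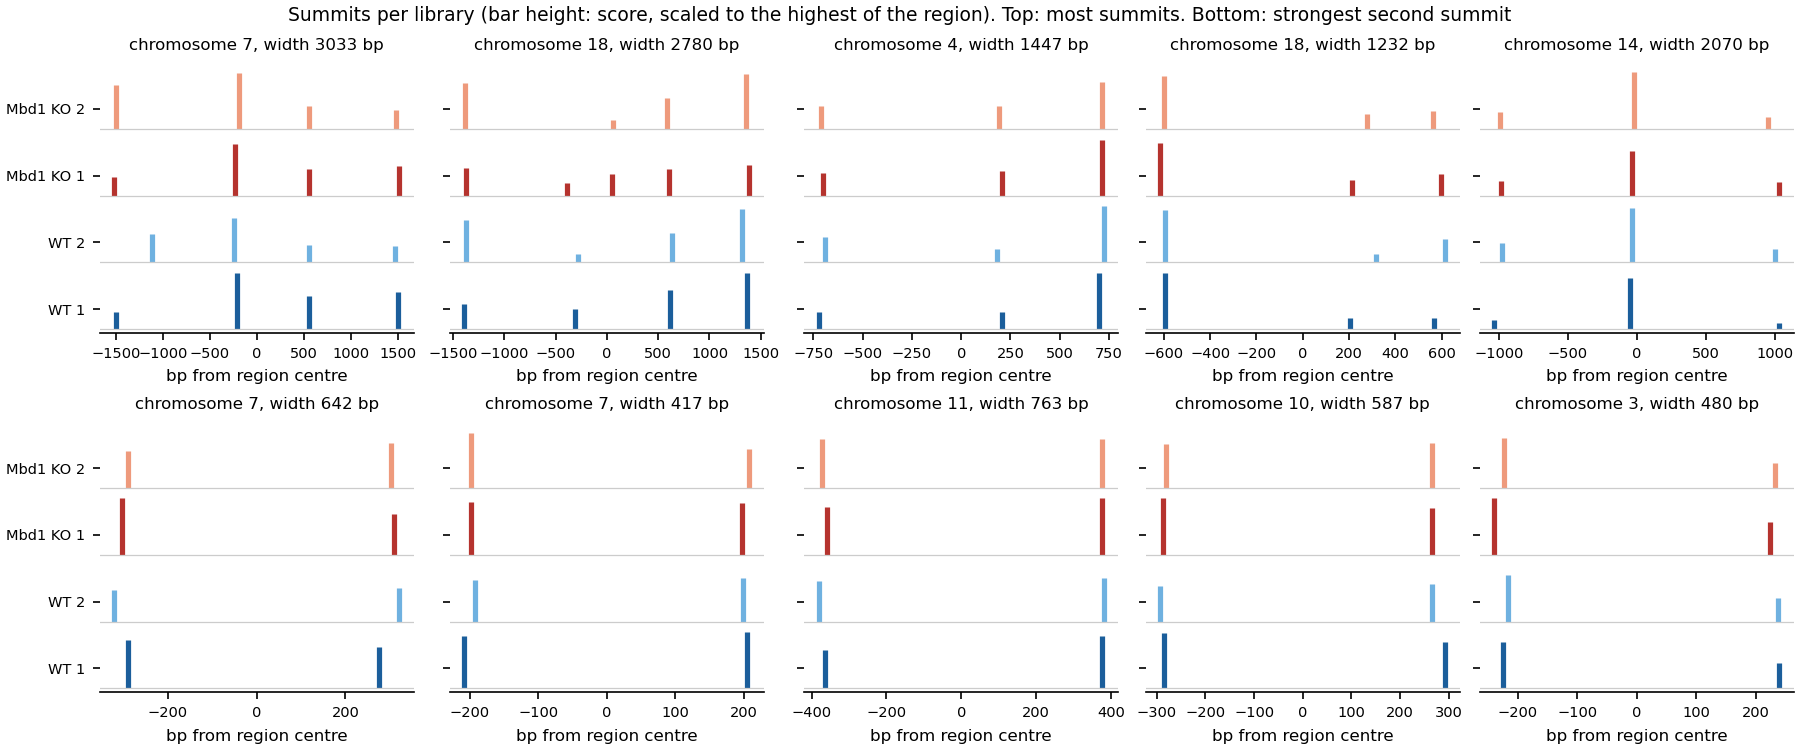
Summits of each library in the 5 wide regions with the most summits (top) and the 5 with the strongest second summit (bottom), by distance from the region's centre in bp; bar height is the score, scaled to the highest of the region. Bars stand at the same distances in nearly all libraries, and in the bottom row the higher bar changes side in 3 of the 5 regions.

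The 4 libraries led from the same place in 359 of the 554 wide regions (64.8%, Wilson 95% interval 60.7% to 68.7%, which covers counting error only). In 191 regions 2 places led and in 4 regions 3 places. A tied highest score, found in between 4 and 11 wide regions of a library, was given to the lower coordinate. In 129 regions 1 library stood against the other 3, which was WT 1 in 29, WT 2 in 39, Mbd1 KO 1 in 32 and Mbd1 KO 2 in 29. In the other 62 regions with 2 leading places, 2 libraries stood against 2. These include the splits by title and by genotype field given below, and regions whose split follows neither label. Among the 1994 regions of all 4 libraries that held 2 or more places but were not wide, all 4 led from the same place in 1508 (75.6%). Those regions lack a second summit in at least 1 library, which leaves that library no choice of lead. The shares are therefore not compared.

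The share of wide regions led from the same place ran from 78.7% to 82.1% over the 6 pairs of libraries. Libraries of the same title led from the same place in 437 wide regions (78.9%, WT 1 with WT 2) and 445 (80.3%, Mbd1 KO 1 with Mbd1 KO 2). Those with the same genotype field did so for 455 regions (82.1%) when WT 1 was compared to Mbd1 KO 1, and for 447 (80.7%) when WT 2 was compared to Mbd1 KO 2. WT 1 shared its lead with Mbd1 KO 2 at 449 (81.0%), and WT 2 shared it with Mbd1 KO 1 at 436 (78.7%). All 6 shares come from the same regions and share libraries, and differences between them were not tested.

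The size of the score lead, the leading minus the second score, went with that agreement. Wide regions were divided into 4 classes by a library's own score lead, and the share in which the other 3 libraries all led from that library's place was counted. In the class with the smallest leads this share was 29.5% in WT 1, 33.1% in WT 2, 30.2% in Mbd1 KO 1 and 31.7% in Mbd1 KO 2. In the class with the largest it was 97.8%, 97.1%, 95.7% and 99.3%. The median score lead was 11.4, 9.41, 12.0 and 12.1 in the 4 libraries. All 132 wide regions in which every library's leading score was at least 2 times its second were led from the same place in all 4, against 47 of the 151 (31.1%) in which no library's was.

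The lead was divided nearly evenly between the sides. Of the 468 2-place regions, the lower coordinate led in 238 in WT 1, 227 in WT 2, 226 in Mbd1 KO 1 and 241 in Mbd1 KO 2. The signed difference between the scores of the 2 places correlated between libraries with a Spearman's rho between 0.830, for the WT libraries, and 0.876, for WT 1 and Mbd1 KO 1, again across regions that are not replicates. By distance between leading and second summit, in 4 classes from the shortest (310 to 477 bp) to the longest (843 to 2233 bp), the share led from the same place in all 4 was 84 of 139 (60.4%), 89 of 138 (64.5%), 95 of 138 (68.8%) and 91 of 139 (65.5%). With 3 or more places the share was 44 of 81 (54.3%), and with 2 places 315 of 473 (66.6%).

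**Figure D4:**
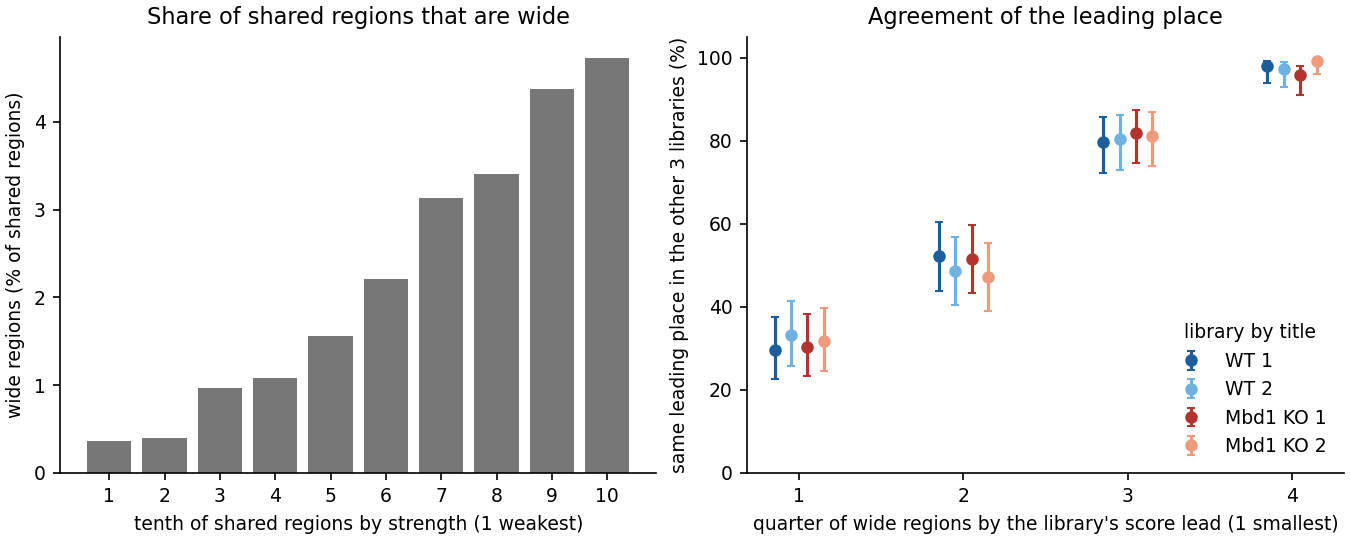
Left, percent of the regions called in all 4 libraries that are wide, by class of strength (10 classes). Right, percent of wide regions in which the other 3 libraries lead from the same place as the library shown, by class of that library's score lead, with Wilson 95% intervals. The share of wide regions rises from 0.361% to 4.73%, and agreement rises from about 30% to over 95% in all 4 libraries.

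The lead followed the titles in few wide regions. Both WT libraries led from one place and both Mbd1 KO libraries from another in 17 of the 554 (3.07%, Wilson 95% interval 1.92% to 4.86%). The background is 0.245% of all 24923 regions called in the 4 libraries and 2.39% of the 2548 of them with 2 or more places, where a lead can part at all. The members' share is near the latter. By the genotype field the lead parted in 26 wide regions (4.69%, interval 3.22% to 6.79%), against a background of 0.293% of all and 2.86% of those with 2 or more places. Of the 1994 regions with 2 or more places that were not wide, 44 (2.21%) parted by title and 47 (2.36%) by the genotype field, both below the share of the wide regions. Wide regions have a second summit in every library by the rule and the others lack one in at least 1, so their leads had different room to part, and the shares were not tested against each other. The 62 wide regions split 2 against 2 also include regions whose split follows neither label, so neither count is read as tied to a label. Regions are not replicates and single regions were not tested.

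Score leads were small where the libraries parted. The smallest of the 4 score leads had a median of 0.997 in the 17 regions that parted by title and 1.41 in the 26 that parted by the genotype field. It was 10.2 in the 359 led from 1 place and 4.59 in all 554 wide regions. Regions that part were chosen because their lead changes place between libraries, which favours small score leads. These medians are therefore a description. In 1 of the 17 and 6 of the 26 a library's 2 scores were tied. With all wide regions that held a tied lead left out, 16 parted by title and 20 by the genotype field.

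Among those that parted by title, a region on chromosome 1 (40299803 to 40300769) had the largest smallest lead, 3.53. Its place near the lower coordinate led in WT 1 (29.3 against 8.88) and WT 2 (20.9 against 12.4). The place near the higher coordinate led in Mbd1 KO 1 (23.9 against 20.4) and Mbd1 KO 2 (21.0 against 13.6). All 4 libraries thus had both summits, while the order of the summits and the size of the score lead differed between libraries.

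The same held on chromosome 10 (74980155 to 74980689). There the lower coordinate led in WT 1 (32.9 against 27.7) and WT 2 (23.7 against 20.5) and the higher one in Mbd1 KO 1 (36.4 against 25.1) and Mbd1 KO 2 (28.9 against 16.5). The next were found on chromosome 13 (22066180 to 22067009) with a smallest lead of 3.03, on chromosome 2 (128643198 to 128644060) with 2.63, and on chromosome 1 (65224971 to 65226666) with 1.98. In 8 of the 17 the Mbd1 KO libraries led from the lower coordinate. A region on chromosome 19 (7054495 to 7055015) held the largest single difference among the 17, 41.1 in Mbd1 KO 1, but its lead was only 0.997 in Mbd1 KO 2; it was named after its values were seen.

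By the genotype field, a region on chromosome 4 (33334752 to 33335615) had the largest smallest lead, 6.42. The lower coordinate led in WT 1 (50.3 against 39.3) and Mbd1 KO 1 (43.9 against 33.5), both Mbd1 KO in that field. The higher one led in WT 2 (33.2 against 26.0) and Mbd1 KO 2 (35.4 against 29.0), both WT in it. Smallest leads from 3.08 to 3.36 followed, at 51683142 to 51685029 of chromosome 14, in the balanced region of chromosome 7 described above (19813499 to 19814140), at 128092871 to 128093911 of chromosome 8 and at 134024212 to 134025038 of chromosome 4. The lower coordinate led in the Mbd1 KO pair in 13 of the 26.

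**Figure D5:**
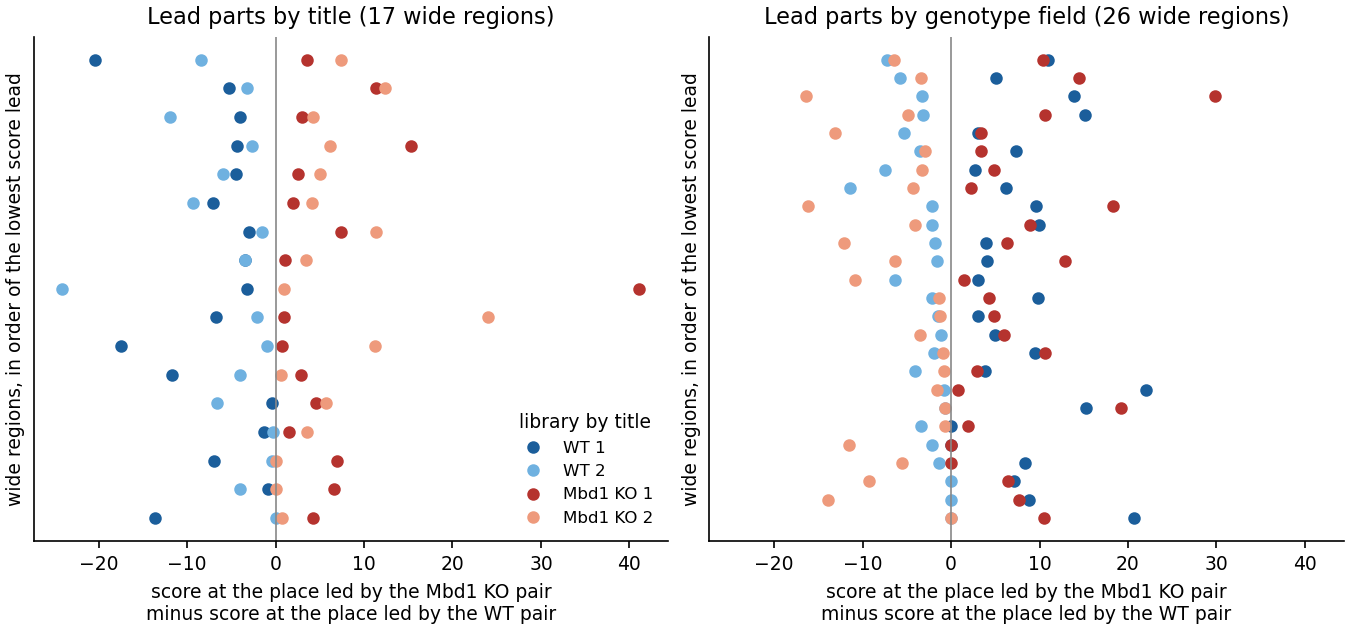
Wide regions whose leading place parts by title (left, 17) or by the genotype field (right, 26), 1 row per region; each dot is a library's score at the place led by the Mbd1 KO pair minus its score at the place led by the WT pair. Dots of a pair lie on 1 side of 0, or on 0 where scores are tied, by the choice of the regions, and in each row at least 1 library lies within 6.42 of 0.

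Places called in only 1 pair of libraries were rare in wide regions. Of their 1209 places, 5 (0.414%) had summits of the Mbd1 KO pair alone by title and 6 (0.496%) of the WT pair alone, against 4.12% and 0.973% of all 80303 places on autosomes outside dense windows. By the genotype field the counts were also 5 and 6, against 1.66% and 2.63%. The rule asks for 2 summits in every library, which works against such places, so nothing is read from the gap to the background.

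Distances between wide regions are a description, since the rule dropped regions in dense windows and no reference for these distances was computed. The median distance to the nearest other wide region was 1063 kb, the shortest was 2.01 kb, and 24 of the 554 had another within 50 kb. The nearest other region called in all 4 libraries lay a median of 23.4 kb away (quartiles 10.03 and 42.0 kb), against 24.1 kb (quartiles 10.5 and 52.1 kb) for regions with 1 summit per library.

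At 10 to 50 kb from their edges, wide regions had more summits around them than regions with 1 summit per library in all 4 libraries. Means per region were 2.01 against 1.73 in WT 1, 2.22 against 2.01 in WT 2, 2.57 against 2.33 in Mbd1 KO 1 and 2.42 against 2.16 in Mbd1 KO 2. The difference was 0.244 ± 0.029 summits (SD over 4 libraries, higher in 4 of 4, exact sign-flip permutation p = 0.125, two-sided, the smallest that 4 libraries allow; 0.25 after Benjamini-Hochberg adjustment over 2 distances). At 1 to 10 kb it was 0.023 ± 0.021 (higher in 3 of 4, exact sign-flip permutation p = 0.25, adjusted 0.25). Neither passes a threshold of 0.05, and the libraries share their regions. The rule dropped regions that touched dense windows of 50 kb, which limits the number of summits around both classes. Wide regions mostly add more shared places to the count of a window than regions with 1 summit per library, so this limit is unequal. Nothing is therefore read from the difference or from either p value. Wide regions also had stronger leading summits, whose part in the difference was not tested.

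The chromosomes differed in how many of their shared regions were wide. On chromosome 19 it was 24 of 715 (3.36%) and on chromosome 7 it was 43 of 1366 (3.15%). The lowest shares were on chromosome 5 (26 of 1530, 1.70%), chromosome 14 (19 of 1105, 1.72%) and chromosome 2 (36 of 2073, 1.74%). No test was made of these shares.

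The rule has 2 edges, the joining distance and the number of summits. In 61 wide regions (11.01%) the largest gap between joined summits was over 900 bp. Among the closest to the limit were regions on chromosome 16 (5225643 to 5226995, 998 bp), chromosome 5 (115223540 to 115224633, 998 bp) and chromosome 10 (12641363 to 12642513, 997 bp). Just outside the rule, 390 regions held 2 or more summits in 3 libraries and 1 in the fourth, and a further 460 in 2 libraries and 1051 in 1. The strongest of the 390 were on chromosome 8 (73421424 to 73422133), where WT 2 lacked the second summit, on chromosome 18 (36719553 to 36720114), where Mbd1 KO 1 did, and on chromosome 5 (124777581 to 124778057), where WT 1 did. On chromosome 8 the second summits that were called scored 7.88, 7.85 and 9.86 beside leading scores from 79.2 to 139.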

How the data were processed

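Each of the 4 libraries has 1 deposited list of peak summits, 1 base wide, with a score. Per the submitters' processing notes, Bowtie, SAMtools and MACS2 were used with build mm9. The sources used here do not give versions, cutoffs, read filters or an input control. The authors deposited a score per summit that has the form of a −log10 p or q value, with a lowest value of 1.32, and which of the 2 it is was not stated. Without counts no interval on the signal could be given. Scores were used only within a list.

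Groups came from the titles, with the genotype field as an alternative. Summits were joined by distance on each chromosome; windows of 50 kb counted shared regions by their midpoint, and a region touching a dense window was dropped. Values per library were compared with exact two-sided permutation tests, and joining, spacing and leads were tested on simulated data. The members, rules and tests were chosen with earlier results of these data known. Named regions were taken by rank: the 5 with the most summits, the strongest leading summit, the strongest second summit, the greatest width, and the largest smallest score lead among those that part by each label, 3 with the shortest and 3 with the longest spacing, and 3 on each side of the rule's edge. Scripts ran in Python 3.11.15 with pandas 2.3.3, numpy 2.4.6, matplotlib 3.10.9 and scipy 1.17.1.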

Additional observations from a re-analysis of the deposited data

How the results depend on the processing

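The number of wide regions, 554, was 200 with joining at 500 bp, 978 at 2000 bp, 243 with scores of at least 10 and 256 when windows with 3 or more shared regions were dropped. Those settings join or keep fewer or more summits by construction. The share led from the same place, 64.8%, was 59.0% at 500 bp and 60.5% with the stricter windows. Regions parting by title, 17, numbered 7 at 500 bp, 38 at 2000 bp, 11 at a score of at least 10 and 10 with the stricter windows. Those parting by the genotype field, 26, numbered 8 at 500 bp, 36 at 2000 bp, 14 at a score of at least 10 and 15 with the stricter windows. So the order of the 2 counts turned at 2000 bp; the cause was not tested. With 1 library left out only 3 must agree, and the ranges were 599 to 675 wide regions, 69.2% to 72.4% led from the same place, 51 to 71 parting by title and 62 to 75 by the field.

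For summit numbers, the ratio of 1.00 by title was just under 1 with equal list lengths (0.997), with the stricter windows (0.995), with chromosome X added (0.999) and with the groups of the genotype field (0.989), and ran from 0.993 (without WT 1) to 1.01 (without WT 2) with 1 library left out. The spacing difference, 1.5 bp, turned to −4.25 bp at a score of at least 10, to −1.5 bp with no window dropped and to −8.5 bp with the stricter windows, and ran from 1.75 to 13.8 bp with 1 library left out. With a replicate block the ratio was 1.00 and the spacing difference 1.5 bp (7 bp in pair 1 and −4 bp in pair 2), each with an exact sign-flip permutation p of 1, and no call changed. The labels do not say what a replicate number marks, and deviations of the leading percentile in same-numbered libraries correlated at −0.054 over the 554 regions. In lists cut to the 38142 strongest summits the same rule gave 474 wide regions, 17 parting by title and 22 by the genotype field. Joining places at 100 or 150 bp gave 63.9% and 64.3% led from the same place. The design cannot pass 0.05, and unknown read depth limits how far a missing second summit can be read.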

Other observations

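Regions with 2 or more summits in each library also lay outside the set described. On chromosome X there were 45 and on chromosome Y 11. With chromosome X added under the same window rule the number of wide regions rose from 554 to 567. The 135 autosomal regions in dense windows had a median width of 1014 bp and up to 6 summits in a library. Their leading summits had median percentiles of 72.9 in WT 1, 79.2 in WT 2, 80.4 in Mbd1 KO 1 and 79.1 in Mbd1 KO 2, below the 82.9, 83.3, 87.0 and 84.9 of the 554.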
